A study of Mus musculus with 2 samples.

Results

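The replication-dependent histone genes are 67 of the 22605 genes with DNase I hypersensitivity values in M1 cells. They were chosen by symbol alone, as genes named Hist1 to Hist4 followed by a histone class, and each gene stands for its longest row in the table, that with most windows. Hist1 on chromosome 13 holds 55 of them, Hist2 on chromosome 3 holds 9, Hist3 on chromosome 11 holds 2 and Hist4 on chromosome 6 holds 1. By class there are 6 genes for the linker histone H1, 19 for H2A, 18 for H2B, 11 for H3 and 13 for H4. M1 is a mouse myeloid leukemia line of progenitor character, and the cytokine IL-6 drives it toward macrophages. DHS-seq, which sequences the short fragments that DNase I releases from open chromatin, was done once on untreated M1 cells and once on M1 cells given IL-6. The labels put the treatment at 4 to 5 days and both cultures at passages 15 to 18. Signal is given as reads per 700-bp window over the coding span of a gene, and each read of the IL-6 library counts as 1.04 after the scaling of the deposited table. With 1 library per condition there is no replicate check, the intervals below cover counting error only, and every difference compares these 2 libraries, not the conditions.

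Replication-dependent histone genes supply the core histones that wrap new DNA in S phase and the linker histone that binds between nucleosomes. They lie in clusters, lack introns as a rule, and give mRNAs that end in a conserved hairpin instead of a poly(A) tail, which the hairpin-binding protein Slbp recognizes. H2A and H2B genes often stand head to head, so that 1 short stretch of DNA serves as the promoter of both. In this annotation 61 of the 67 members have a single exon, coding or not.

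The following sequences lie before the starts of members with the strongest signal and of a member with far less. They are from NCBIM37 with GENCODE M1 starts and are written 5′ to 3′ in lower case. Capitals mark the CCAAT box (CCAAT), the TATA box (TATAAA), the octamer (ATTTGCAT) and the hexamer GGTCCG, each on either strand. The first is the stretch between the starts of the head-to-head pair Hist2h2ac and Hist2h2be (chr3:96024804-96025043, plus strand), which lies in the strongest shared window of any pair resolved. The second lies before the start of the member with most signal, Hist1h3g (chr13:23627041-23627290, plus strand). The third lies before the start of Hist4h4 (chr6:136752901-136753150, minus strand), and the last before the start of the testis gene Hist1h2aa (chr13:24026081-24026330, plus strand), which was no lower after IL-6.
Hist2h2ac/Hist2h2be: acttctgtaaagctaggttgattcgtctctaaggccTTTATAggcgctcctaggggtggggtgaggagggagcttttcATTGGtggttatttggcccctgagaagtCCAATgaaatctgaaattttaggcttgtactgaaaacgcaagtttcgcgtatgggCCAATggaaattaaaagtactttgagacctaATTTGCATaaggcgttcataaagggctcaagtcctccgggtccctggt
Hist1h3g: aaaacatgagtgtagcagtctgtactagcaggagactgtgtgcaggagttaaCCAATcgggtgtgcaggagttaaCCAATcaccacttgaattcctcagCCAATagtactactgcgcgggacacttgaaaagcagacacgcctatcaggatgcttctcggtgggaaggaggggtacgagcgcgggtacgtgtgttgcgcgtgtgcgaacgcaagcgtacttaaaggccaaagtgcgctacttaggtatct
Hist4h4: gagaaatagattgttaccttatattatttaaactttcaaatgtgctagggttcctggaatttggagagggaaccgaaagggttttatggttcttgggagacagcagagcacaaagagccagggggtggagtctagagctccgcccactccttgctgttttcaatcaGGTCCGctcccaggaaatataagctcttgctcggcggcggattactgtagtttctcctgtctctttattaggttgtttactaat
Hist1h2aa: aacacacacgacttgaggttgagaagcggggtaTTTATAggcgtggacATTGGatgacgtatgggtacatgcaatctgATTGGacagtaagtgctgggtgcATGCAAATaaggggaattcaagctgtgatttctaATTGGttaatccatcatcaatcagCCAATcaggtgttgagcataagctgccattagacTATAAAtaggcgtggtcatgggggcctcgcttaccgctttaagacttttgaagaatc

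The CCAAT box, the site of the factor NF-Y, was present within 250 bases before the annotated start of 57 of 67 members (85.1%), against 34.8% of 22592 genes of the table. All members of H1, H2A and H2B carried it, as did 10 of 11 H3 genes, but only 4 of 13 H4 genes. TATAAA was found before 33 members (49.2%), against 12.4% of all genes. The octamer, which the factor Pou2f1 (Oct-1) binds, stood before 15 members, of which 7 code for H2A and 8 for H2B, against 2.25% of all genes. Both strands were searched, so 1 site between head-to-head genes can count for both. That was so for the octamer of Hist1h2ac and Hist1h2bc, of Hist1h2ae and Hist1h2bg, and of Hist1h2ah and Hist1h2bk. It was also so for Hist1h2ba and Hist1h2aa and for Hist2h2ac and Hist2h2be. The hexamer GGTCCG was added to the search after its letters were seen in H4 promoters, where it belongs to the H4-specific element of the histone gene factor Hinfp. It was present before 11 of 13 H4 genes, all except Hist1h4a and Hist1h4b, and before 2 of the other members, against 8.06% of all genes. No motif contains another, and a match is a description of the sequence only. For Hist1h2be, Hist2h3c1 and Hist1h3f the annotated start lies 35168, 1332 and 433 bases upstream of the coding span, so that their 250 bases are not those next to it. Hist1h3f is the H3 gene without CCAAT.

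A hairpin was sought as 16 bases that begin with GG, pair over 6 bases and leave a loop of 4, within 150 bases after the stop codon. It was found after 60 members (89.6%) and after 0.686% of 22591 genes of the table. The most common form, shared by 36 members of H1, H2A, H2B and H3, and the form shared by 8 H4 genes are shown to let the arms be compared.
36 members: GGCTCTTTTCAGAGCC
8 H4 genes: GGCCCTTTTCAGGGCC
The members without a match are Hist1h2al, Hist1h2an, Hist1h2bp, Hist1h2bq, Hist1h2br, Hist2h2bb and Hist2h2be. Hist1h2bp, Hist1h2bq, Hist1h2br and Hist2h2bb are listed here with a long coding span, and their search began at the stop codon of that span.

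In untreated M1 cells the histone genes were among the most DNase I-sensitive coding spans of the table. Their median was 181 reads per window, against 7.75 over all genes, and the median member stood at the 99.4 percentile of all genes. Together they held 0.258% of the reads assigned to genes in 0.0101% of the windows. In IL-6-treated cells the median was 28.6 scaled reads per window, against 8.14 over all genes, a percentile of 97.6, and the share of reads was 0.0440%. The histone genes were thus lower after IL-6 and still above most genes. In nuclei taken in bulk, a lower signal in every cell and an open state in fewer cells cannot be told apart.

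Of the 67 genes, 62 had at least 20 reads over both libraries, and in 60 the signal was at least 2-fold lower after IL-6. Over all 19776 genes with as many reads, 12.6% were at least 2-fold lower. No histone gene was at least 2-fold higher, against 2.42% of all genes. The median log2 ratio of the histone genes was -2.60, against 0.05 over all genes. When each of the 116 windows they touch was counted once, 21179 reads in untreated cells stood against at most 3475 in IL-6-treated cells, a ratio of 0.170 (95% interval 0.164 to 0.177). The size of these ratios depends on the scaling, and their distance from the median of all genes does not. With a scaling by the median of ratios over 71 other genes of 1 window, the median of all genes moved to 1.75 and that of the histone genes to -0.91, so that the distance was -2.65 in place of -2.66. With that scaling 58 of the 62 histone genes were still below 0, 20 passed 2-fold downward and 2 upward, against 3.56%, 0.137% and 81.2% of all genes. The 4 at or above 0 were Hist1h2aa, Hist1h2al, Hist1h2ba and Hist3h2ba. The 71 genes of that scaling had to pass a minimum of reads in each library, so they do not stand for all genes of 1 window. With the scaling of the deposited table, the 235 other genes of 1 window with 20 reads over both libraries had a median of -0.28.

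**Figure D1:**
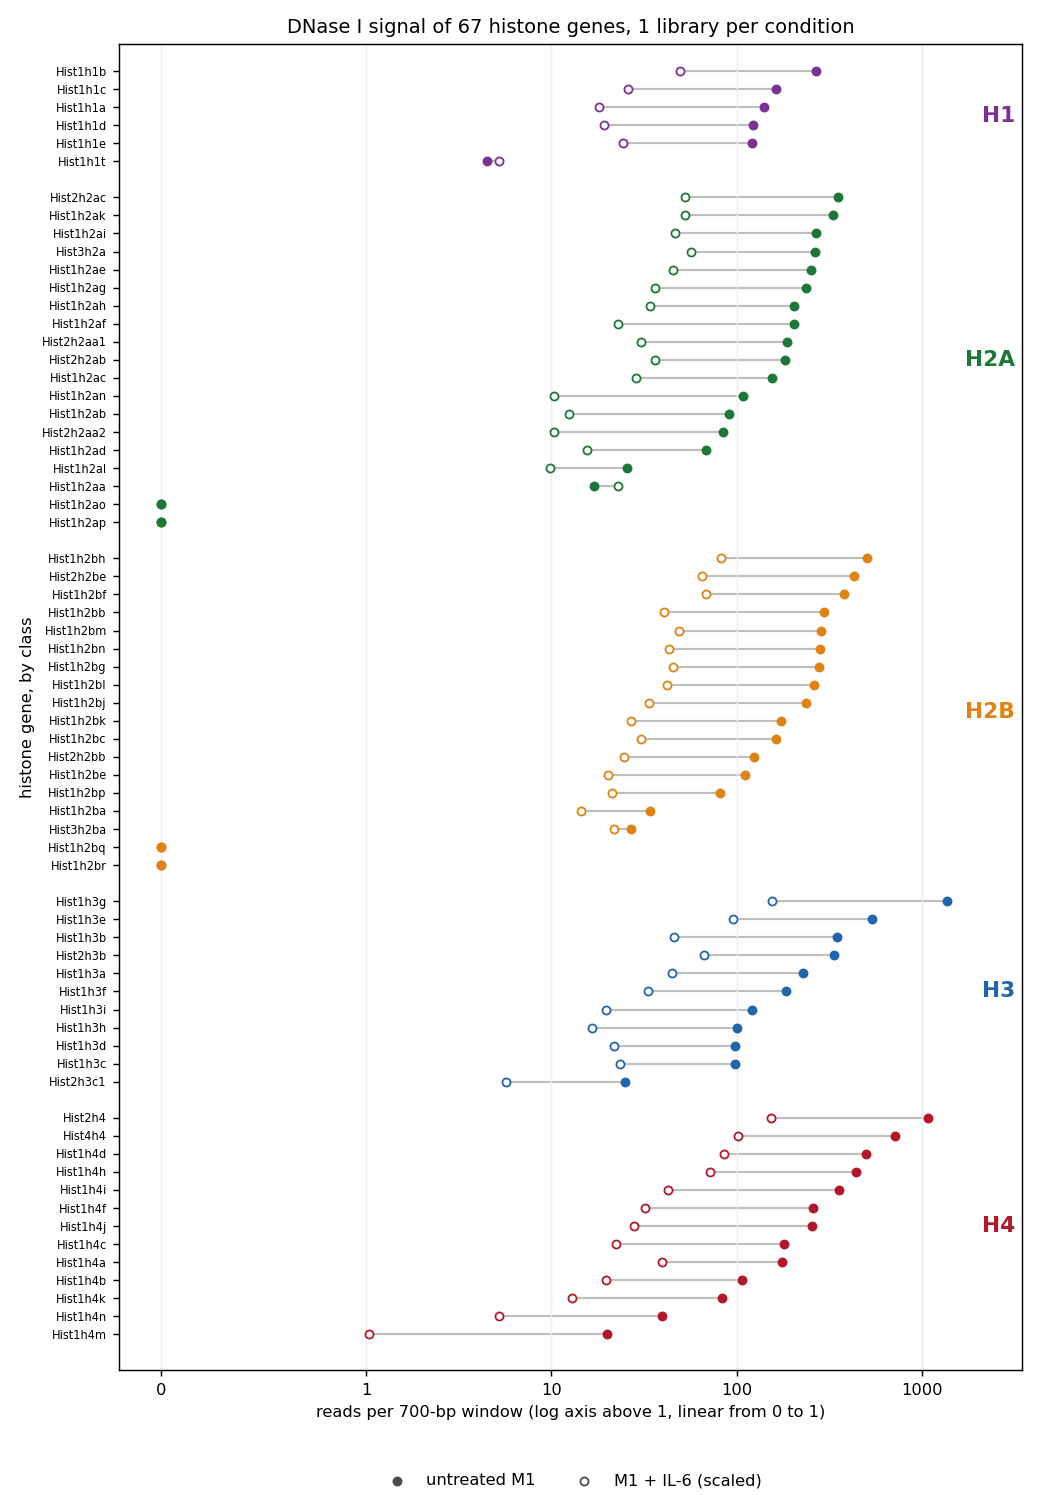
Each row is a histone gene, grouped by class and ordered by its signal in untreated M1 cells. The x axis gives reads per 700-bp window (log above 1, linear from 0 to 1), filled points are untreated M1 cells and open points are IL-6-treated M1 cells after scaling. Filled points lie to the right in all rows except those of Hist1h1t, Hist1h2aa and the 4 genes at 0.

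A fall was common among strongly sensitive short genes, so the histone genes were set beside other genes of 1 or 2 windows with the same summed signal. Between 100 and 200 reads per window, 14 histone genes had a median log2 ratio of -2.51 and 98 other genes one of -1.80. Between 200 and 400 reads, 24 histone genes had a median of -2.63 and 54 other genes one of -1.99. All 24 of these histone genes and 52 of the 54 other genes were at least 2-fold lower. Between 400 and 800 reads the medians were -2.62 in 9 histone genes and -2.23 in 23 other genes. Between 50 and 100 reads they were -2.65 in 3 histone genes and -1.21 in 137 others, and between 10 and 50 reads -1.35 in 7 and 0.27 in 1409. From 800 to 1600 reads there were 3 histone genes (-2.82) and 1 other gene (-0.26). In each range the histone median lay below that of the other genes. The middle 50% of the other genes ran from -2.16 to -1.83 at 200 to 400 reads and that of the histone genes from -2.82 to -2.48, so the quartile ranges did not meet there. These ratios share a total with the signal that sorts them, and no test was made.

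**Figure D2:**
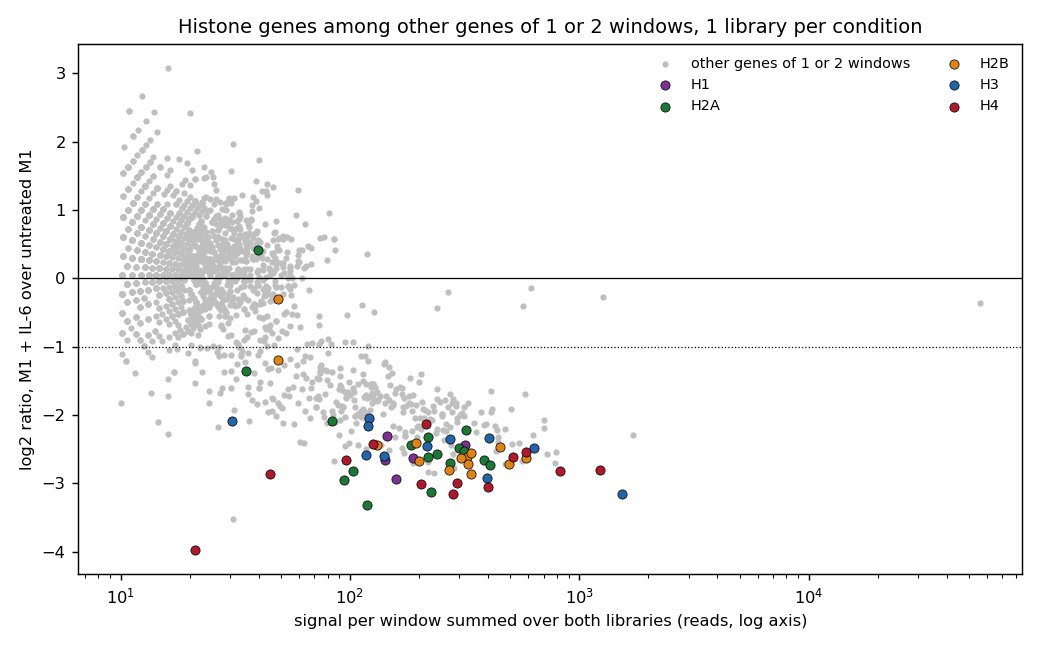
The y axis is the log2 ratio of IL-6-treated over untreated M1 cells and the x axis the signal per window summed over both libraries (log axis). Gray points are other genes of 1 or 2 windows, colored points are histone genes by class, and the dotted line marks a 2-fold fall. Among genes of 200 to 400 reads the histone genes have a median of -2.63 and the others of -1.99.

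All 5 linker histone genes with enough reads were at least 2-fold lower after IL-6. Hist1h1b, the H1 gene with most signal, held 538 reads in untreated and 95 in IL-6-treated cells (log2 ratio -2.44). Hist1h1a had the largest fall of the class, from 280 to 35 reads (-2.93), and Hist1h1e the smallest of those with 20 reads, from 243 to 47 (-2.30). Hist1h1a and Hist1h1b lie in windows of almost wholly unique sequence, with 99.7% and 98.2% of 32-bp sequences found once in the genome. Hist1h1t codes for the H1 of testis and lies between Hist1h2bc and Hist1h4c. It held 9 and 10 reads over 2 windows, 4.5 reads per window before IL-6, below the median of all genes. The H1 coding spans are also the least alike of any class, with a median identity of 70.6% between pairs.

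Among the 19 H2A genes, 17 had enough reads and 16 were at least 2-fold lower. Hist2h2ac held most signal per window, with 707 reads in untreated and 102 in IL-6-treated cells (-2.73). Hist1h2an, of 1 window, fell most, from 108 to 10 reads (-3.32). Hist1h2aa, the testis H2A gene, held 17 and 22 reads (0.42), with an interval of the ratio from 0.681 to 2.70 that includes 1. Hist1h2al stands alone on chromosome 13, far from the rest of Hist1, and went from 51 to 19 reads (-1.35). The other H2A genes with reads all had log2 ratios between the value of Hist1h2an and -2.09, the value of Hist1h2ad.

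Of 18 H2B genes, 16 had enough reads and 15 were at least 2-fold lower. The H2B gene with most signal per window was Hist1h2bh, with 507 reads in untreated and 79 in IL-6-treated cells in its single window (-2.62). Hist1h2bb had the lowest ratio, from 298 to 39 reads (-2.86). Hist3h2ba held 27 and 21 reads (-0.30, interval of the ratio 0.434 to 1.48) and was the only H2B gene with enough reads that did not pass 2-fold. Hist1h2ba, the testis H2B gene, went from 34 to 14 reads (-1.20), and its ratio interval ran up to 0.818. Hist2h2bb has the most reads of the class, 1495 and 284 (-2.34), because its listed span covers 12 windows, and its mean was 124.6 reads per window.

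The 11 H3 genes were all at least 2-fold lower, with log2 ratios from -3.15 to -2.05. Hist1h3g had the strongest single value of any member, with 1375 reads in its 1 window before IL-6 and 149 after. It was also the H3 gene with the lowest ratio, 8.89-fold lower. Hist1h3e followed with 538 and 92 reads (-2.49). Hist1h3c had the smallest fall of the class, from 195 to 45 reads over 2 windows.

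The 13 H4 genes were all at least 2-fold lower and had the lowest class median, -2.82. Hist2h4 held 1077 reads in untreated and 148 in IL-6-treated cells in 1 window (-2.81). Hist4h4, the only member on chromosome 6, held 1439 and 196 reads over 2 windows (-2.82), and its windows are 99.9% unique. Hist1h4d held 499 and 82 reads (-2.54). Hist1h4m had the lowest ratio of any member, with 40 and 2 reads (ratio 0.0519, interval 0.00608 to 0.20), and Hist1h4a the highest of the class, with 175 and 38 reads (-2.13).

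The classes differed little from each other in their fall. The medians were -2.63 for H1, -2.56 for H2A, -2.59 for H2B, -2.45 for H3 and -2.82 for H4, and the SD over the genes of H4 was 0.44. Summed over a class, the ratio was 0.145 (0.134 to 0.157) for H4, 0.163 (0.150 to 0.176) for H3 and 0.173 (0.161 to 0.186) for H2A. It was 0.175 (0.164 to 0.186) for H2B and 0.173 (0.152 to 0.197) for H1. The H4 interval lay below those of H2A and H2B and overlapped those of H3 and H1. The H2A and H2B sums are not independent, since windows shared by head-to-head genes enter both. Of the 5365 H4 reads in untreated cells, Hist2h4 and Hist4h4 gave 1077 and 1439. The intervals leave out the spread between genes. Members with GGTCCG before the start, 11 of 13 of them H4 genes, had a median of -2.82, and the 49 others with enough reads had one of -2.49. The 10 members without CCAAT, 9 of them H4 genes, had a median of -2.84, and the 52 with CCAAT and enough reads had one of -2.56. Members with and without TATAAA had medians of -2.60 and -2.62. Motif and class are nearly tied here. The H4 genes without GGTCCG, Hist1h4a and Hist1h4b, had -2.13 and -2.42, and the 13 members with it ran from -3.97 to -2.54. Its carriers outside H4, Hist1h2bh and Hist1h3i, had -2.62 and -2.60. With so few such genes the parts of motif and class in these values cannot be told apart, and this was not tested.

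The testis genes Hist1h1t, Hist1h2aa and Hist1h2ba were grouped after their values were seen, so their contrast with the rest is a description. They held 4.5, 17.0 and 34.0 reads per window in untreated cells, and 5.19, 22.8 and 14.5 after IL-6. Among all genes these values stood at percentiles of 28.23, 80.62 and 92.65 in untreated cells, and of 27.56, 95.24 and 82.47 after IL-6. Hist1h2aa and Hist1h2ba were thus above most genes in both libraries. No other member with reads was as low in untreated cells as Hist1h1t or Hist1h2aa. Some were lower than Hist1h2ba, among them Hist1h4m with 20, Hist2h3c1 with 25 and Hist3h2ba with 27 reads per window. The windows of these are 5.93%, 48.2% and 68.3% unique, and those of Hist1h1t, Hist1h2aa and Hist1h2ba 100%, 94.3% and 75.6%. The reads of the 3 testis genes summed to 60 and 46, a ratio of 0.796 (0.530 to 1.19). The other 64 members had a ratio of 0.164 (0.158 to 0.170). The 7 windows shared by members count once for each member in that sum, so its interval is somewhat too narrow. The stretch of 305 bases between the starts of Hist1h2ba and Hist1h2aa holds 4 CCAAT boxes, 2 TATAAA and 1 octamer. The stretch of 240 bases between Hist2h2ac and Hist2h2be holds 3, 1 and 1 of them, and its window held 593 reads. The letters searched thus did not separate the weaker pair from the strong one. Without these 3 genes, 59 of 60 members with enough reads were at least 2-fold lower and the median was -2.61.

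The fall was of like size in Hist1, Hist2 and Hist4 and smaller in Hist3. The median was -2.61 in Hist1 and -2.61 in Hist2, where all 9 genes were at least 2-fold lower. In Hist2, Hist2h2be went from 858 to 125 reads (-2.72) and Hist2h3b from 673 to 128 (-2.34), each over 2 windows. Hist2h2ab went from 182 to 36.3 scaled reads per window (-2.32). Hist2h2aa1 went from 376 to 59 reads (-2.61), Hist2h2aa2 from 84 to 10 (-2.96) and Hist2h3c1 from 50 to 11 (-2.08). The pair on chromosome 11 was unequal, and the median of Hist3, -1.26, became 0.43 with the median of ratios. Hist3h2a held 530 reads in untreated and 109 in IL-6-treated cells over 2 windows (-2.22), and its windows are 92.9% unique, while its neighbor Hist3h2ba changed by less than counting error.

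On chromosome 13 the Hist1 members fall into 5 groups where gaps of over 100 kb divide them. The first group spans 120.1 kb and 18 members (median log2 ratio -2.64), the second 8.45 kb and 5 members (-2.70) and the third 233.2 kb and 29 members (-2.52). The remaining groups are the testis pair and Hist1h2al. Between the first member and Hist1h2aa lie 47 other genes that share no window with a histone gene, of which 33 are vomeronasal receptor genes, a family of pheromone receptors. Their median was 2.5 reads per window in untreated and 3.63 in IL-6-treated cells, against 174 and 27.0 for Hist1 genes, so the histone genes stood 69.6-fold above them before and 7.43-fold above them after IL-6. Against the 14 that are no vomeronasal receptor gene, these folds were 28.2 and 4.16. Of these 47 genes 15 had enough reads, with a median log2 ratio of 0.14. At least 2-fold lower were 2, Abt1 with 144 and 46 reads (-1.58) and Prss16 with 298 and 111 reads (-1.37). At least 2-fold higher was 1, Vmn1r194 with 5 and 16 reads (1.64). The shares of all genes were 12.6% lower and 2.42% higher. Hfe, an iron-handling gene inside the third group, went from 225 to 128 reads over 10 windows (-0.76). The predicted gene Gm17658 was left out because it shares the window of Hist1h4d. The median of the 47 genes was below that of all genes in both libraries.

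**Figure D3:**
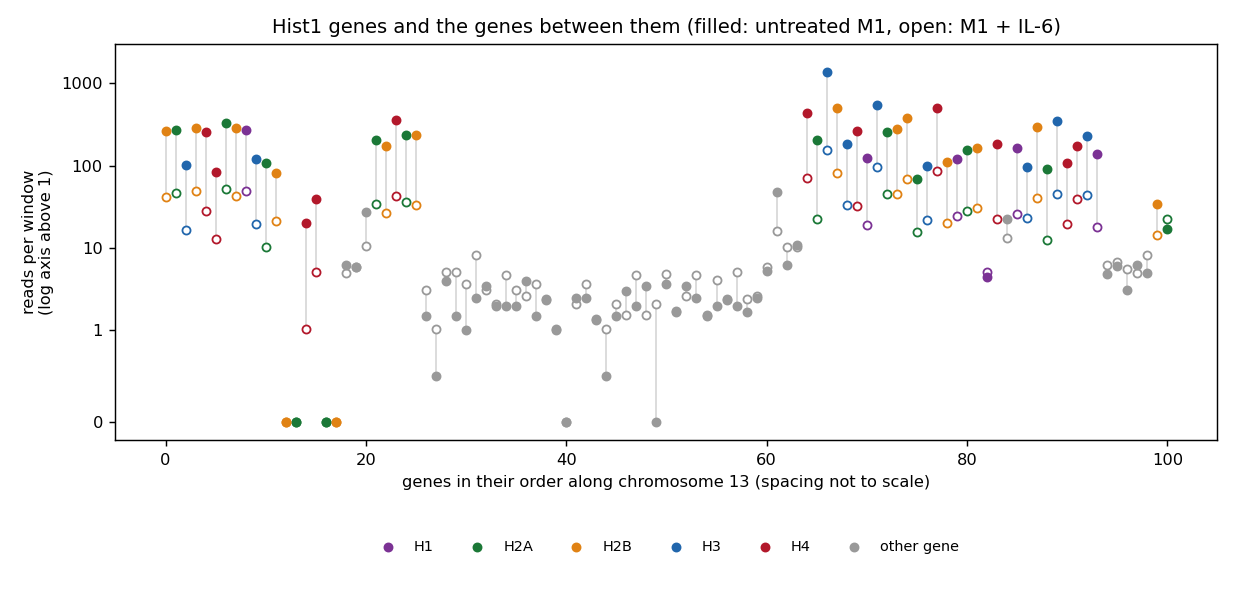
The x axis lists Hist1 genes and the other genes between them in their order along chromosome 13, not to scale, and the y axis gives reads per window (log above 1). Colored points are histone genes by class and gray points other genes, filled for untreated and open for IL-6-treated M1 cells. Hist1h2al, far from the rest, is not drawn. All 55 Hist1 genes, with Hist1h2al, have a median of 174 and 27.0 and the other genes of 2.5 and 3.63.

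For rows of few windows the mean and SD of the table give back the reads of single windows. This was possible in both libraries for 51 of the 116 windows. Of these windows 10 have no unique sequence and 0 reads and are left out here. In untreated cells the 18 windows that hold at least 125 of the 250 bases before a start had a median of 335.5 reads, and the 12 that hold none had one of 98.0 reads. After IL-6 these medians were 56.1 and 18.2 scaled reads. Windows with the promoter bases thus had the higher median in both libraries, while the ranges overlapped in untreated cells (17 to 1375 and 23 to 265 reads). The 11 windows between, with fewer of these bases, had a median of 203 reads. The median log2 ratio was -2.59 in the first kind and -2.36 in the second.

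In some head-to-head pairs 1 window holds both starts and is touched by both coding spans, and it is called shared here. Of 13 head-to-head pairs of members, such a window could be resolved in untreated cells in 6 and in both libraries in 5. In others, such as Hist1h2ah and Hist1h2bk or Hist1h2bf and Hist1h2ad, 1 window holds both starts but only 1 coding span touches it. In still others, such as Hist1h2ba and Hist1h2aa, the starts lie in different windows. The window of Hist2h2ac and Hist2h2be held 593 reads in untreated cells, between flanking windows of 114 and 265 reads. That of Hist1h2ak and Hist1h2bn held 529 reads between 135 and 37. That of Hist1h2ag and Hist1h2bj held 440 reads between 35 and 34, or 12.8 times the mean of its flanks. The shared window was the strongest of the 3 in these pairs and also in Hist1h2bl and Hist1h2ai (413 reads) and in Hist1h2ac and Hist1h2bc (289 reads). In Hist1h2ae and Hist1h2bg it held 473 reads, and its value after IL-6 could not be resolved.

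Over the 5 pairs resolved in both libraries, the shared windows went from 2264 to 320 reads, a ratio of 0.147 (0.130 to 0.165). Their flanking windows went from 916 to 190 reads, a ratio of 0.215 (0.183 to 0.252). The 2 intervals of these sums did not overlap. Pair by pair, the shared window had the lower ratio in 4 of the 5, and the intervals were separate in 1, Hist1h2bl and Hist1h2ai. In Hist1h2ac and Hist1h2bc the shared window had the higher ratio, 0.187 against 0.170. After IL-6 the shared window was still the strongest in each of the 5 pairs. In Hist2h2ac and Hist2h2be it held 76 reads, between 26 and 49. Outside the 5 pairs, the window with both starts of Hist1h2ah and Hist1h2bk went from 205 to 33 reads (log2 ratio -2.56). The next window, of Hist1h2bk, went from 174 to 26 (-2.67), so the window with both starts fell no more there. In Hist1h2bf and Hist1h2ad the window with both starts went from 382 to 66 reads (-2.47). The next window, of Hist1h2ad, went from 68 to 15 (-2.09).

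**Figure D4:**
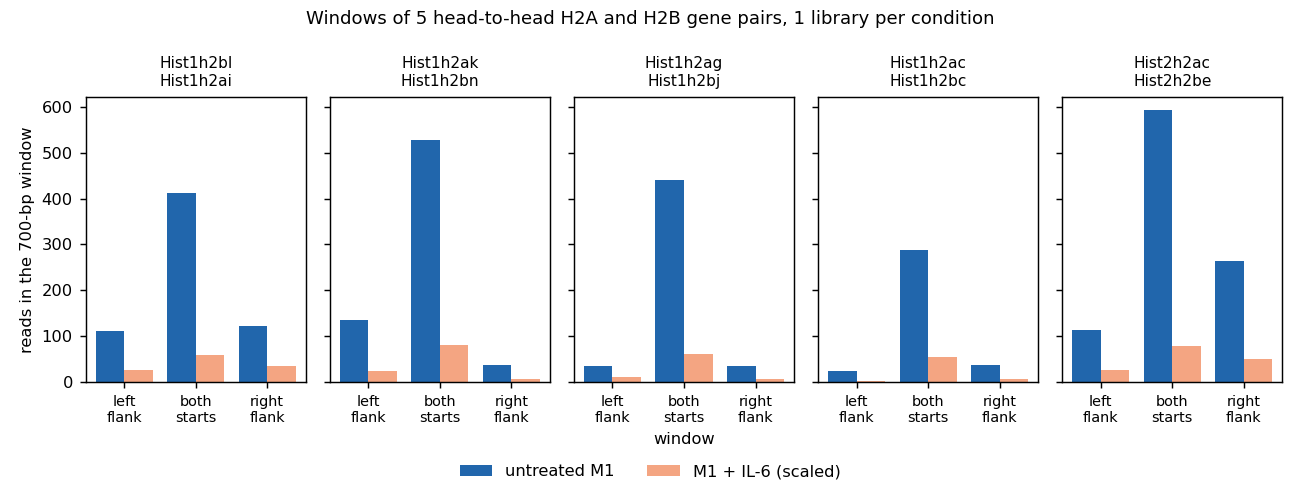
Each panel is a head-to-head pair of an H2A and an H2B gene, and the bars give the reads in the window with both starts and in the window on either side, in untreated and, scaled, in IL-6-treated M1 cells. The shared window is the tallest in every panel, with 593 and 76 reads (before scaling) in the pair Hist2h2ac and Hist2h2be.

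Near-identical copies limit what reads can be placed. The share of 32-bp sequences in a member's windows that occur once in the genome had a median of 65.6%. Coding spans had a median identity of 91.1% between pairs in H2A, 94.8% in H2B (14 genes of 1 or 2 windows), 97.6% in H3 and 93.9% in H4. Hist1h2ao and Hist1h2ap, Hist2h2aa1 and Hist2h2aa2, and Hist1h4m and Hist1h4n were identical pairs. Hist1h2ao, Hist1h2ap, Hist1h2bq and Hist1h2br had 0 reads in both libraries, which allows up to 3 reads each, and 0.0% of their sequence is unique. They cannot be told from closed chromatin by these values. Of the 7 members under 10% unique, the other 3 with reads were Hist1h4m, Hist1h4n (79 and 10 reads) and Hist2h2aa2.

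Among the 15 members with at least 80% unique sequence, 14 had enough reads and 13 were at least 2-fold lower, with a median log2 ratio of -2.54. The 28 members of 60 to 80% had a median of -2.59 and the 17 of 10 to 60% had one of -2.56. These medians were close to each other. Across the 62 members, Spearman's rho of the log2 ratio with the unique share was 0.20, with the coding GC content -0.08 and with the reads per window in untreated cells -0.36. These are descriptions, since the members share both libraries and the last pair shares a value.

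Genes outside the family were described by lists of histone biology. Of 13 histone variant genes outside the Hist1 to Hist4 family, 12 had enough reads and 5 were at least 2-fold lower, with a median log2 ratio of -0.37. H2afx, which codes for the variant phosphorylated at DNA breaks, stood among the canonical genes with 412 reads in untreated and 60 in IL-6-treated cells in 1 window (-2.72). H2afj, on chromosome 6 near Hist4h4, went from 190 to 43 reads (-2.08) and H2afz from 176 to 42 (-2.00). H3f3b went from 147 to 49 reads (-1.52) and H2afv from 517 to 186 (-1.42). H1fnt, the H1 of spermatids, had the highest ratio, with 19 and 34 reads (0.88). Of the other short ones, H1fx held 16 and 13 reads over 2 windows (-0.24) and H2afb1 8 and 6 reads in 1 window.

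Of 14 genes for histone gene transcription and mRNA processing, 3 were at least 2-fold lower and the median was -0.25. Slbp, which binds the hairpin shown above, went from 1005 to 270 reads over 26 windows (-1.84). Cstf2, a subunit of the cleavage machinery, went from 320 to 128 reads (-1.26) and Npat, the coactivator that links cyclin E to histone genes, from 790 to 371 (-1.03). Hinfp, the factor of the H4 element, held 124 and 110 reads (-0.12), and Pou2f1, the octamer factor, 860 and 716 (-0.21). Zfp473 had the highest ratio, with 113 and 135 reads (0.31). Of 9 histone chaperone genes 4 were at least 2-fold lower, with a median of -0.69. Rbbp4, the lowest, went from 531 to 188 reads (-1.44), Asf1b from 515 to 201 (-1.30), and Chaf1b, the highest, held 264 and 270 (0.09). The shares of all genes that were 2-fold lower and higher, 12.6% and 2.42%, apply to these 3 lists too. None of the 3 held a gene at least 2-fold higher, which says little at that share, and their medians lay between those of the histone genes and all genes.

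Cebpa, a myeloid transcription factor gene, held 46.5 reads per window in untreated and 15.1 in IL-6-treated cells, above the median of all genes, whereas Alb, a hepatocyte gene, held 3.09 and 4.34. The libraries held 9326429 and 8703774 reads over one transcript of each gene, counting windows of neighboring genes more than once.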

How the data were processed

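The authors digested nuclei of untreated and IL-6-treated M1 cells with DNase I, sequenced the short fragments, aligned them to NCBIM37 (mm9) with BWA and used Seqmonk. The deposited signal is a mean and an SD per transcript over the windows of 700 bp touched by its coding span. The handling of reads that match several places is not given in the sources used here. Means times windows were whole reads in 100% of 55432 rows (tolerance 0.05 reads, 1 read worth 1.0 in M1 and 1.03816 after IL-6). The members and lists were chosen with earlier results of these data known. Log2 ratios add 0.5 reads to each library, genes need 20 reads over both, and calls need 2-fold. Intervals are 95% Clopper-Pearson, with no test across libraries. The recovery was tested on simulated data. Motifs and unique 32-bp sequence were counted on NCBIM37 with GENCODE M1. Named were all genes of Hist2 to Hist4, the extremes and strongest of each class, the 5 strongest of each library, and members with few reads or no fall. Others, such as the testis genes, neighbors, Cebpa and Alb, were chosen after their values were seen. Alternatives covered scaling, reads added, the read minimum, the row per gene, shared windows, uniqueness, length and fold. Python 3.11.15, numpy 2.4.6, pandas 2.3.3, scipy 1.17.1 and matplotlib 3.10.9 were used.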

Additional observations from a re-analysis of the deposited data

How the results depend on the processing

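The scaling moved the values most. With the median of ratios of the same 71 other genes of 1 window, the median log2 ratio was -0.91. That of Hist1 was -0.91, of Hist2 -0.91 and of Hist4 -1.11. The medians of H1, H2A, H2B, H3 and H4 were -0.94, -0.87, -0.88, -0.76 and -1.11, and that of Hist3 reversed to 0.43, as did Hist1h2ba (0.48) and Hist1h2al (0.34). The summed ratio was then 0.557, with 20 members past 2-fold downward (0.137% of all genes) and 2 upward (81.2%). Without scaling the median was -2.66 and the summed ratio 0.164. With 5 reads added the median was -2.47. With at least 90% unique sequence 5 of 6 members were at least 2-fold lower, and of the members of 1 window 22 of 24, where fewer members entered. The other 59 values of medians and counts moved within counting error or by under 1.5 times. Of 120 values of single genes, 91 stayed within their counting interval. Leaving out the testis genes was chosen after seeing the data. No paired analysis was possible because only 1 library stands for untreated and 1 for treated cells, and none could be left out.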
